A study of Drosophila melanogaster with 13 samples.

Results

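The genes examined here encode the contractile machinery of larval muscle. They were taken as a list of 10 sarcomere genes by their FlyBase symbols, and all 10 were found among the 17476 genes of the count files. *up* and *wupA* are X-linked, 7 genes lie on the 4 major autosome arms and *bt* lies on chromosome 4. RNA-seq of whole first instar larvae of *Drosophila melanogaster* gave 13 libraries in the 4 genotypes needed to compare loss of either or both *roX* RNAs with wildtype. The *roX1 roX2* mutant (3 libraries, replicates 2 to 4) carried the deletions roX1[ex6] and roX2[9-4] together on an X chromosome marked with y[1] and w[1118], and with v[1] according to the methods of the study. The *roX1* mutant (4 libraries, replicates 1 to 4) carried roX1[ex6] with y[1] and w[1118]. The *roX2* mutant (3 libraries, replicates 2 to 4) carried roX2[9-4] with y[1], cho[2] and v[1]. Wildtype (3 libraries, replicates 1, 3 and 4) had intact *roX* genes on an X chromosome with y[1] and w[1118]. In each cross, mothers with the X chromosome of interest (kept over the balancer FM7i for the double mutant) were mated with males whose FM7i balancer carried an Actin-GFP transgene. Each library came from pooled male larvae without GFP, so that every larva had the maternal X chromosome, a paternal Y chromosome and 1 set of autosomes from the balancer stock. The genotypes were not isogenic. Other alleles on the X chromosome differed between them together with the *roX* mutations, since the *roX2* mutant lacked w[1118] and only this mutant carried cho[2].

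A sarcomere is the repeating contractile unit of striated muscle. Thin filaments of actin, covered by tropomyosin and the troponin complex, slide past thick filaments of myosin when calcium binds troponin, and giant elastic proteins tie the filaments to the Z-discs. In first instar larvae these genes work in the somatic, visceral and heart muscles, and most of them make several protein isoforms by alternative splicing, which counts per gene do not separate. *roX1* and *roX2* are long non-coding RNAs of the MSL complex, which binds the single male X chromosome and raises its transcription. *up* and *wupA* are therefore potential direct targets of that complex, while the other 8 genes lie outside its main territory.

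In the release 6 assembly (Ensembl annotation BDGP6.54) the thin filament genes are *Act57B* (FBgn0000044, chromosome 2R, 20944021 to 20946431, plus strand), *Tm1* (FBgn0003721, 3R, 15278220 to 15308779, plus strand), *Tm2* (FBgn0004117, 3R, 15310193 to 15315197, plus strand), *up* (FBgn0004169, X, 13593474 to 13602578, minus strand) and *wupA* (FBgn0283471, X, 18105568 to 18116922, minus strand). The thick filament genes are *Mhc* (FBgn0264695, 2L, 16766566 to 16788766, plus strand), *Mlc1* (FBgn0002772, 3R, 27657078 to 27660177, minus strand) and *Mlc2* (FBgn0002773, 3R, 30171438 to 30174551, minus strand). The genes of giant proteins are *sls* (FBgn0086906, 3L, 2039681 to 2115611, minus strand) and *bt* (FBgn0005666, chromosome 4, 724400 to 776474, plus strand). *Tm1* and *Tm2* are neighbours. Reads were counted over all exons of a gene, UTRs included. Exons of *Tm1* share 280 bases with *l(3)neo43* and exons of *sls* share 1089 bases with asRNA:CR42860, both on the opposite strand, and *Act57B* shares 96 bases with a small nucleolar RNA gene on the same strand. The library kit does not mark strand, so reads from these stretches cannot be told apart by gene of origin, whichever strand option the counting used, and the values of *Tm1*, *Act57B* and *sls* are uncertain to that extent.

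The 13 libraries held between 45620194 and 83954893 counts on genes. Each contractile gene had at least 37647 counts in each library, so that counting error was small beside the spread between libraries. The targeted RNAs followed the labels. *roX1* had 1.40 to 4.06 CPM (counts scaled to the library size with the TMM factors of edgeR) in *roX1 roX2* mutant and 0.769 to 3.41 CPM in *roX1* mutant, against 971 to 1131 CPM in wildtype, and *roX2* had 0 to 3 reads in each library of *roX1 roX2* and *roX2* mutants. Libraries were also split by the first principal component of genes on the major arms (54.6% of the variance, without the contractile genes and the other listed muscle genes), which set *roX1* replicates 1 and 2, *roX2* replicate 4 and wildtype replicate 1 apart from the other 9. Each change below is a log2 expression ratio from one edgeR quasi-likelihood fit of the 4 genotypes to the 13975 genes with at least 20 summed counts, with its SE. A gene was called at a Benjamini-Hochberg adjusted p under 0.05. The replicates are described in the study as biological. The labels do not say which cross, vial or day each pool came from, so the p-values measure the spread between these pools.

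The 10 genes were expressed at very different levels, which were compared as TPM, that is per base of exon. In *roX1 roX2* mutant these levels ran from 6721 ± 1017 TPM for *Act57B* to 29.1 ± 12 TPM for *sls* (SD, n = 3). In wildtype, *Act57B*, an actin of larval muscle, stood highest with 11130 ± 996 TPM (SD, n = 3 here and in the following values). The myosin light chain genes followed, with 4844 ± 389 TPM for *Mlc2* (regulatory light chain) and 2720 ± 200 TPM for *Mlc1* (essential light chain). *up* (troponin T) had 2383 ± 219 TPM. The wildtype libraries of *Mlc1* and *up* overlapped, so that this pair of neighbours in the order was not separated beyond its spread. *Mhc*, the only muscle myosin heavy chain gene of the fly, had 1600 ± 331 TPM and *wupA* (troponin I) had 1586 ± 144 TPM, again with overlapping libraries. *Tm2*, a muscle tropomyosin gene, had 1309 ± 164 TPM and *Tm1*, which makes muscle and cytoplasmic tropomyosins, had 371 ± 54.5 TPM. The giant protein genes came last, with 159 ± 23.4 TPM for *bt* (projectin) and 36.3 ± 6.87 TPM for *sls* (Sallimus, which includes the kettin isoforms). *Mhc* and *wupA* exchanged places in the order of each of the mutants, whose order was otherwise that of wildtype. The order depended on the length used. With the longest transcript in place of all exons, the wildtype libraries of *up* (3088 to 3699 TPM) lay above those of *Mlc1* (2399 to 2752 TPM), *wupA* (2238 TPM on average) passed *Mhc* (1896 TPM), and *Tm1* had 1143 TPM.

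In *roX1 roX2* mutant, all 10 contractile genes had a mean below wildtype, and 7 of them passed the test as lower: *up*, *wupA*, *Mlc1*, *Mlc2*, *Tm1*, *Tm2* and *Act57B*. Among all 13975 genes, 5.67% were called lower and 3.41% higher in this comparison, and no contractile gene was called higher. The median log2 expression ratio of the 10 genes was -0.82, against a median of -0.02 over all genes. Together the 10 genes took 2.26% to 2.93% of the counts on genes in *roX1 roX2* mutant libraries, against 3.74% to 4.44% in wildtype libraries. In RNA of whole larvae, fewer muscle cells and less RNA per muscle cell cannot be told apart.

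**Figure D1:**
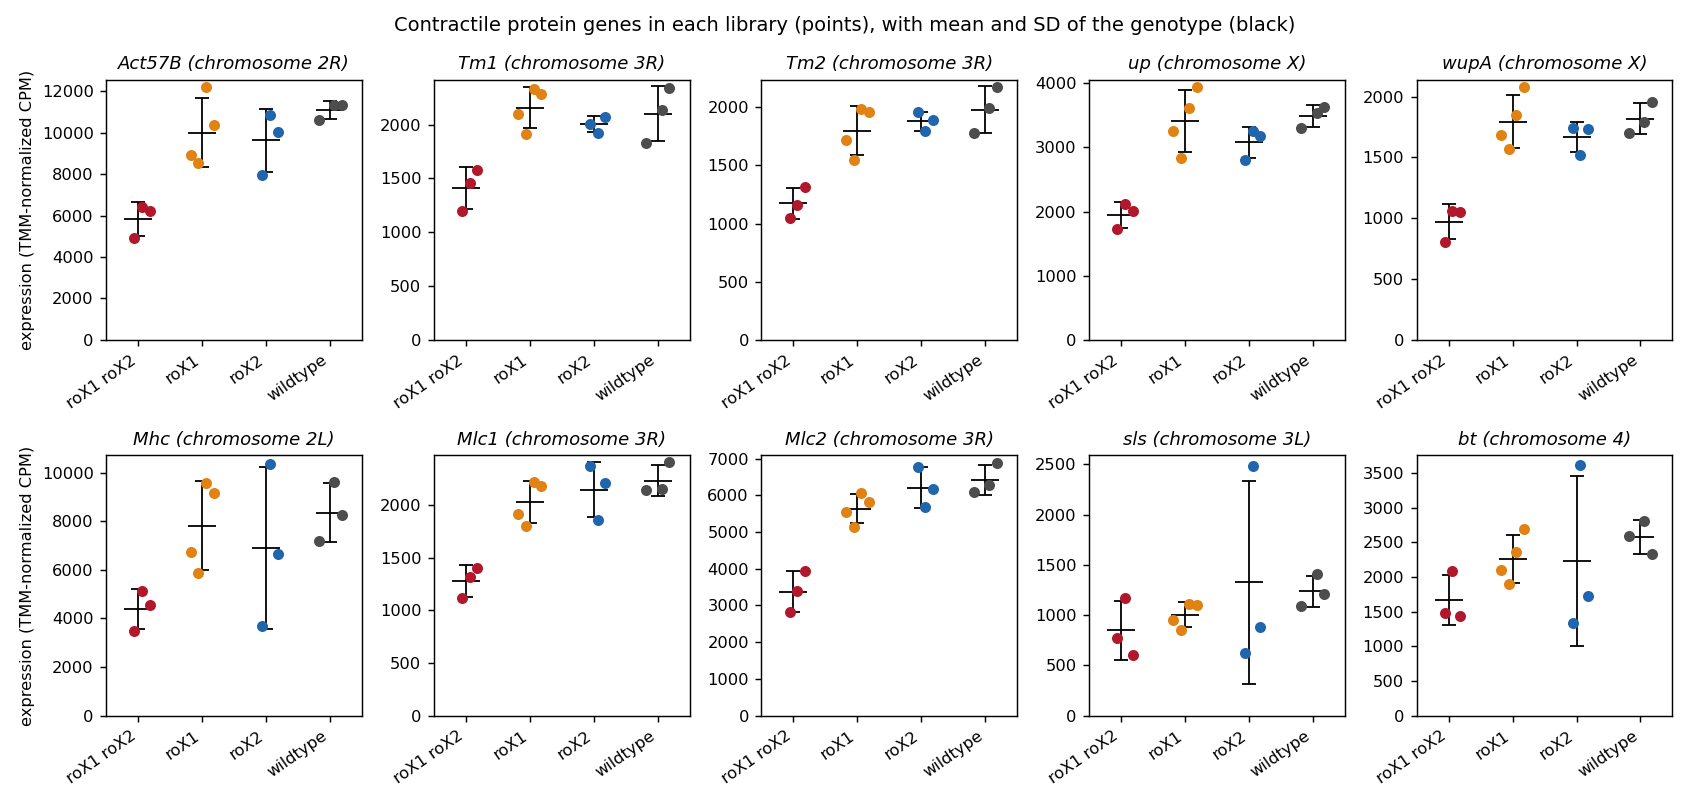
Expression of the 10 contractile protein genes in each library (points; TMM-normalized CPM on a linear axis from 0), with the mean and SD of each genotype in black. In 7 of the 10 panels (not *Mhc*, *sls* and *bt*) the 3 *roX1 roX2* mutant libraries lie below all libraries of the other genotypes. How many of all genes are separated in this way is not given here.

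The X-linked troponin genes were lower in each double mutant library. *up* had 1722, 2122 and 2005 CPM in *roX1 roX2* mutant replicates 2 to 4, against 3299, 3544 and 3627 CPM in wildtype replicates 1, 3 and 4. These groups did not overlap, and the highest mutant library was far below the lowest wildtype library. The log2 expression ratio of *up* was -0.84 ± 0.16 (SE; edgeR adjusted p = 0.00861). *wupA* had 805, 1060 and 1055 CPM in *roX1 roX2* mutant, against 1703, 1795 and 1954 CPM in wildtype. The groups were again separate, with a log2 expression ratio of -0.90 ± 0.15 (edgeR adjusted p = 0.00603). The ratio of *up* to *wupA*, which encode partners in the same troponin complex, stayed similar, at 1.01 ± 0.085 on the log2 CPM scale in *roX1 roX2* mutant and 0.943 ± 0.046 in wildtype (SD, n = 3 each, no test).

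The other thin filament genes, which are not X-linked, were lower as well. *Act57B* had 4902, 6400 and 6204 CPM in *roX1 roX2* mutant, against 10620, 11350 and 11330 CPM in wildtype. Its expression in the mutant was 0.526 of that in wildtype by the fit (log2 expression ratio -0.93 ± 0.20, edgeR adjusted p = 0.0172), and the groups were far apart. *Tm2* had 1046, 1159 and 1316 CPM in *roX1 roX2* mutant, against 1775, 1990 and 2174 CPM in wildtype, without overlap (log2 expression ratio -0.75 ± 0.15, edgeR adjusted p = 0.0104). *Tm1* had 1200, 1462 and 1583 CPM in *roX1 roX2* mutant, against 1829, 2134 and 2342 CPM in wildtype. *Tm1* had the smallest change of the 7 called genes, with -0.57 ± 0.15 (edgeR adjusted p = 0.0356), and its groups did not overlap either. The calls of *Tm1*, *Tm2* and *Act57B* each depended on single libraries: without *roX1 roX2* mutant replicate 2 only *wupA*, *Mlc1* and *Mlc2* were called (3 of 10), and without *roX1 roX2* mutant replicate 3 only these and *up* (4 of 10). *Tm1* and *Act57B* were also lost without wildtype replicate 3 or replicate 4 (5 of 10 called), and *Tm1* with only the libraries of these 2 genotypes in the fit (6 of 10).

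Of the thick filament genes, both light chains were called. *Mlc2* had 2819, 3384 and 3927 CPM in *roX1 roX2* mutant, against 6092, 6271 and 6887 CPM in wildtype (log2 expression ratio -0.93 ± 0.16, edgeR adjusted p = 0.00713). *Mlc1* had 1113, 1316 and 1404 CPM in *roX1 roX2* mutant, against 2137, 2150 and 2404 CPM in wildtype (log2 expression ratio -0.80 ± 0.15, edgeR adjusted p = 0.00856). In both genes the lowest wildtype library stood well above the highest mutant library. *Mhc* had 3502, 5117 and 4565 CPM in *roX1 roX2* mutant, against 7180, 9613 and 8250 CPM in wildtype. The *Mhc* groups did not overlap, and its ratio of -0.93 was as large as that of *Mlc2*, but with an SE of 0.34 it did not pass the test (edgeR adjusted p = 0.115). DESeq2 called *Mhc* lower, with an adjusted p of 0.0426.

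The giant protein genes were not called. *bt* had 1482, 2078 and 1432 CPM in *roX1 roX2* mutant, against 2589, 2810 and 2323 CPM in wildtype, with a log2 expression ratio of -0.63 ± 0.32 (edgeR adjusted p = 0.245). The *bt* groups did not overlap, although the gap was smaller than in the light chains. *sls* had 769, 1169 and 605 CPM in *roX1 roX2* mutant, against 1092, 1404 and 1209 CPM in wildtype. Replicate 3 of the mutant lay within the wildtype range, and the ratio of *sls* was -0.54 ± 0.42 (edgeR adjusted p = 0.466; 95% interval -1.47 to 0.38).

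**Figure D2:**
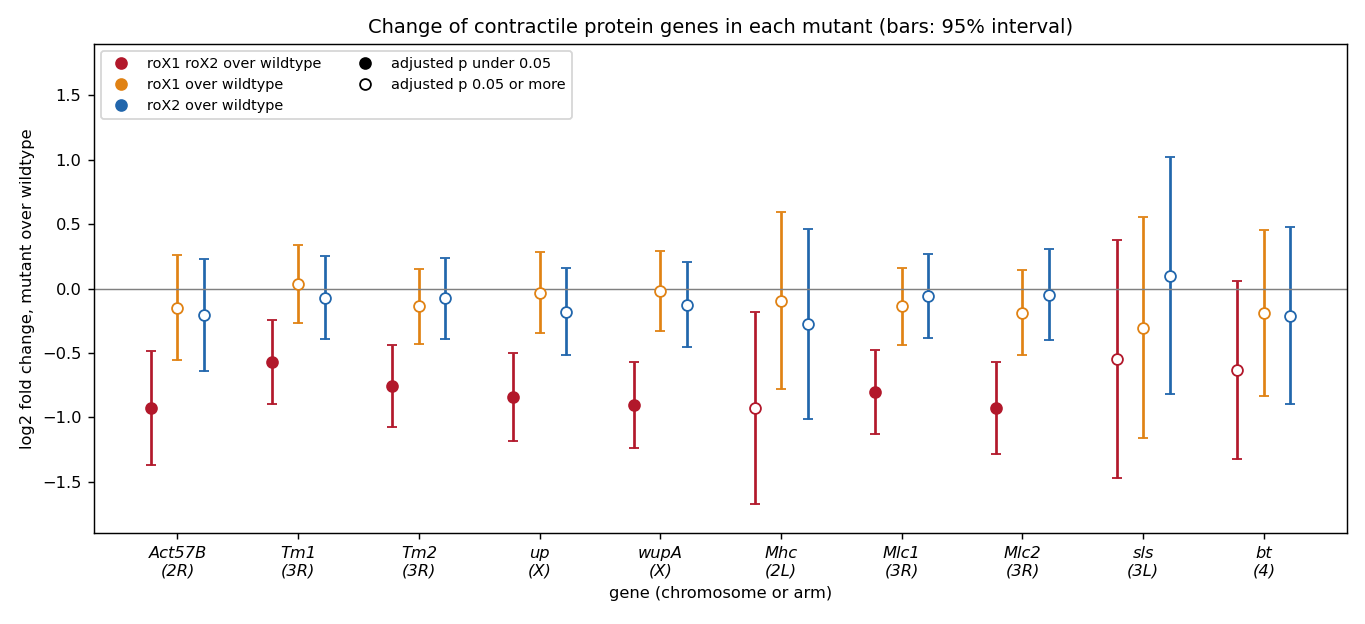
Log2 expression ratio of each contractile gene (mutant over wildtype) with its 95% interval from the edgeR fit; filled points have an adjusted p under 0.05. The 7 filled points are all in *roX1 roX2* mutant, and the 20 points of the single mutants lie between -0.30 and 0.10, each with an interval that spans 0.

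Loss of a single *roX* RNA gave no call among the contractile genes. In *roX1* mutant against wildtype, 0 of 10 passed the test in either direction, where 0.751% of all genes were called higher and 0.572% lower. None had an unadjusted p under 0.05, and DESeq2 called none. The log2 expression ratios in *roX1* mutant ran from -0.30 (*sls*) to 0.04 (*Tm1*) with a median of -0.14. In *roX2* mutant against wildtype, 0 of 10 passed the edgeR test as well, where 0.165% of all genes were called higher and 0.186% lower, none had an unadjusted p under 0.05 and DESeq2 called none. The ratios ran from -0.27 (*Mhc*) to 0.10 (*sls*), with a median of -0.10. Over the genes of the major arms the mean ratio was 0.11 in *roX1* mutant, 0.14 in *roX2* mutant and -0.04 in *roX1 roX2* mutant. Relative to this mean each of the 10 genes was below 0 in each mutant. The median over the same genes was 0.031 in *roX1* mutant, 0.014 in *roX2* mutant and 0.053 in *roX1 roX2* mutant. Above that median lay *Tm1* in *roX1* mutant (0.038) and *sls* in *roX2* mutant (0.102).

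Apart from *Mhc*, *sls* and *bt*, levels in the single mutants lay close to those of wildtype. These 3 genes varied widely in *roX2* mutant, where *sls* ran from 618 to 2480 CPM, against 1092 to 1404 CPM in wildtype. *wupA* had 1688, 1566, 1851 and 2076 CPM in *roX1* mutant and 1745, 1524 and 1733 CPM in *roX2* mutant, against 1703 to 1954 CPM in wildtype. *Act57B* had 8929, 8519, 12200 and 10400 CPM in *roX1* mutant and 7963, 10880 and 10060 CPM in *roX2* mutant, against 10620 to 11350 CPM in wildtype. In both genes each single mutant overlapped with wildtype, and the lowest single mutant library stood above the highest *roX1 roX2* mutant library. The tropomyosin genes had 1914 to 2334 CPM (*Tm1*) and 1543 to 1983 CPM (*Tm2*) in *roX1* mutant, 1926 to 2073 and 1794 to 1955 CPM in *roX2* mutant, and 1829 to 2342 and 1775 to 2174 CPM in wildtype. *Mlc1* had 1803 to 2217 CPM in *roX1* mutant and 1857 to 2366 CPM in *roX2* mutant, against 2137 to 2404 CPM in wildtype. These ranges overlapped as well. *Mlc2* had 5558, 5127, 6070 and 5810 CPM in *roX1* mutant replicates 1 to 4, which are all below the lowest wildtype library (6092 CPM). Its ratio there was nevertheless only -0.19 ± 0.15, with a 95% interval of -0.52 to 0.14. *up* had 2809, 3260 and 3176 CPM in *roX2* mutant replicates 2 to 4, also all below wildtype, with a ratio of -0.18 ± 0.15 and a 95% interval of -0.52 to 0.16. These were the only 2 of the 20 combinations of gene and single mutant in which the groups were separate. The share of all genes with separate groups is not given here, so this count is a description only. Changes of the size seen for *up*, *wupA*, *Mlc1* and *Mlc2* in the double mutant lay outside the 95% intervals of these genes in both single mutants. For *Mhc*, *sls* and *bt* the intervals were wider, for *sls* from -1.16 to 0.56 in *roX1* mutant and from -0.82 to 1.02 in *roX2* mutant.

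The double mutant was also compared directly with each single mutant. Against *roX1* mutant, the same 7 genes were called lower as against wildtype, with 11.6% of all genes called lower and 6.45% higher. The ratios ran from -0.88 (*wupA*) to -0.24 (*sls*), with a median of -0.70. The calls were fewer without *roX1 roX2* mutant replicate 2 (2 of 10: *up* and *wupA*) or replicate 3 (4 of 10), and *Act57B* was lost without *roX1* mutant replicate 1. Against *roX2* mutant, 5 genes were called lower (*up*, *wupA*, *Mlc1*, *Mlc2* and *Tm2*), with 5.44% of all genes called lower and 2.23% higher. *Act57B* had an edgeR adjusted p of 0.0505 and *Tm1* of 0.0626 in this comparison. In a fit with the replicate number as a block, both were called (edgeR adjusted p = 0.0298 and 0.0451) and the count was 7. That block was shared by the libraries of all genotypes, so it was not a paired test of these 2 alone. In deviations from genotype means, same-numbered *roX2* and *roX1 roX2* mutant libraries correlated at only 0.136 to 0.208. Those of *roX1* and *roX2* mutants correlated at -0.58 to 0.239. The comparison with *roX2* mutant rested on few libraries: 0 of the 10 were called without *roX1 roX2* mutant replicate 2 or replicate 3 or with only these 2 genotypes in the fit, 1 (*Mlc2*) without *roX2* mutant replicate 4 or with only the 9 libraries on the larger side of the principal component, and 4 (not *up*) without *roX1 roX2* mutant replicate 4. All 10 ratios were below 0 in both comparisons, which share the double mutant libraries. Without *roX2* mutant replicate 3, the ratios over *roX2* mutant became 0.18 for *sls*, 0.122 for *bt* and -0.234 for *Mhc*.

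Whether the loss of *roX2* acted differently with and without *roX1* was tested with an interaction term, the difference of the log2 ratios of *roX1 roX2* over *roX1* and of *roX2* over wildtype. All 10 values were negative, from -0.76 ± 0.21 for *wupA* to -0.23 ± 0.43 for *bt*, although that of *bt* was 0.05 when centred on the mean of the major arms. None passed the threshold (lowest edgeR adjusted p = 0.0737, for *wupA*), whereas 3.01% of all genes did. At an unadjusted p under 0.05 the number was 6 of 10, and DESeq2 was not run for this term. The share of all genes at that unadjusted threshold is not given here.

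The 2 X-linked contractile genes were both called, as were 5 of the 8 others, and the difference between them was not tested. In *roX1 roX2* mutant against wildtype, the median log2 ratio was -0.87 for the X-linked genes and -0.78 for the others, while the median over all tested genes was -0.56 on the X chromosome and 0.05 on the major arms. On chromosome 4, where *bt* lies, the median of the 105 tested genes was 0.08. Among all tested genes, 27% of those on the X chromosome were called lower but only 1.77% of those on the major arms, where 5 of the 7 contractile genes were called. The 111 genes of the major arms with a mean of at least 1000 CPM included all 7, and 6.31% of these abundant genes were called lower. That share includes the contractile genes themselves. Without them, 2 of 104 abundant genes were called lower, *Prm* (paramyosin) and *Mf* (myofilin), which are also thick filament genes. These 2 were named after their values were seen. Within a library, the mean log2 CPM of *up* and *wupA* minus that of the 8 other genes was -0.531 ± 0.048 in *roX1 roX2* mutant, -0.309 ± 0.074 in *roX1* mutant, -0.412 ± 0.293 in *roX2* mutant and -0.427 ± 0.054 in wildtype (SD over libraries, no test). Values in *roX1 roX2* mutant ran from -0.569 to -0.477 and overlapped with those of wildtype, from -0.489 to -0.392.

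The relative levels of transcripts for the myosin subunits differed little between the double mutant and wildtype. *Mlc1* minus *Mlc2* was -1.40 ± 0.077 on the log2 CPM scale in *roX1 roX2* mutant and -1.53 ± 0.018 in wildtype, with separate groups (SD, n = 3 each). *Mhc* minus *Mlc2* was 0.376 ± 0.198 in *roX1 roX2* mutant and 0.371 ± 0.212 in wildtype. The same difference was 0.031 ± 0.878 in *roX2* mutant, where the libraries disagreed.

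Disagreement of this kind was widest in the 3 genes that encode the largest proteins of the list. In *roX2* mutant replicates 2, 3 and 4, *Mhc* had 3674, 10370 and 6664 CPM, *bt* had 1334, 3621 and 1725 CPM and *sls* had 618, 2480 and 878 CPM. Replicate 2 was low and replicate 3 high in all of them. Replicate 3 was the highest of all 13 libraries for each of these genes. The 7 other contractile genes varied less, and in different directions. *Act57B* (7963, 10880 and 10060 CPM) and *up* (2809, 3260 and 3176 CPM) were also lowest in replicate 2 and highest in replicate 3. *Mlc1*, *Mlc2*, *Tm2* and *wupA* were highest in replicate 2 and lowest in replicate 3, with 6784, 5687 and 6167 CPM for *Mlc2*. *Tm1* stayed within 1926 to 2073 CPM. The mean log2 CPM of the 7 genes deviated from the mean of the *roX2* mutant by 0.003 in replicate 2 and -0.043 in replicate 3. *sls* deviated by -0.837 and 1.167. A set of 156 genes outside the list, with transcripts of at least 10000 bases, moved in the same way as *Mhc*, *sls* and *bt*. The median deviation in this set, from the mean of each gene over all libraries, was -0.62 in replicate 2 and 0.516 in replicate 3 of *roX2* mutant. In the other 11 libraries it was -0.199 to 0.246. *Mhc* itself falls short of that length, with a longest transcript of 7341 bases. Replicate 2 also had 20.9% of its counts on mitochondrial large ribosomal RNA, against 7.41% to 12.6% in the others. The part of transcript length or RNA quality in these values was not tested. With *roX2* replicates 2 and 3 left out, an alternative chosen after the data were seen, *Mhc* was called in *roX1 roX2* mutant against wildtype (edgeR adjusted p = 0.0315) and *bt* came to 0.0509. Against the single remaining *roX2* library, which was assumed to vary like the other genotypes, only *Mlc1* was called.

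**Figure D3:**
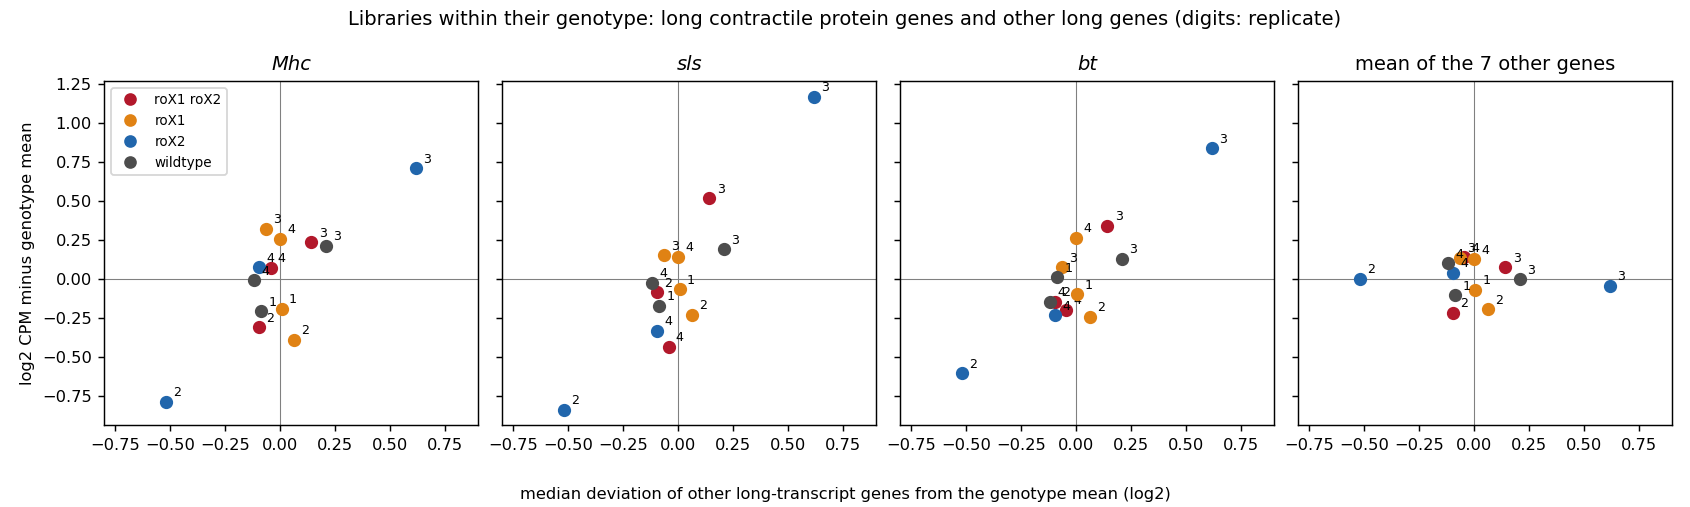
Deviation of each library from the mean of its genotype (log2 CPM, vertical axis) for *Mhc*, *sls*, *bt* and the mean of the 7 other contractile genes, plotted against the median deviation of 156 other genes with long transcripts (horizontal axis, log2); digits are replicate numbers. *roX2* replicates 2 and 3 lie at opposite corners for *Mhc*, *sls* and *bt*, and near 0 on the vertical axis for the mean of the 7 others.

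Further muscle genes were counted in 6 lists with 62 genes, of which 59 were matched and 58 tested. In *roX1 roX2* mutant against wildtype, 13 of the 58 were called lower and 0 higher, with a median log2 ratio of -0.43, and 51 of 58 were below 0. Over all tested genes 5.67% were called lower and 3.41% higher, with a median of -0.02. DESeq2 called 19 lower and 0 higher, and 25 of the 58 had an unadjusted p under 0.05. Among all genes DESeq2 called 2215 in either direction, against 1269 by edgeR. Of the X-linked genes 5 of 8 were called lower (median -0.85), where 27% of all X genes were, and of the others 8 of 50 (median -0.42), where 1.77% of genes on the major arms were. In the single mutants none of the 58 was called by edgeR, with 8 at an unadjusted p under 0.05 in *roX1* mutant and 5 in *roX2* mutant. DESeq2 called 4 of them lower in *roX1* mutant and 0 in *roX2* mutant, where it called 979 and 245 of all genes in either direction. Shares of all genes at an unadjusted p under 0.05 are not given here for any of these comparisons.

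These calls lay among the genes of the filaments and of their anchorage. Of the 9 other thin filament genes 3 were called lower: *Act87E*, another muscle actin, with 136 ± 35.4 CPM in *roX1 roX2* mutant and 356 ± 69.3 CPM in wildtype, *TpnC73F* (troponin C) with 212 ± 7.27 and 349 ± 13.2 CPM, and *tmod* (tropomodulin, which caps actin filaments) with 251 ± 13.9 and 343 ± 14.0 CPM (SD, n = 3 each). *Act87E* is near-identical in sequence to other muscle actin genes, so its counts are uncertain where reads fit more than one of them, and the same holds for *Act57B*. Of the 5 thick filament genes 2 were called, with 1004 ± 163 CPM of *Prm* in *roX1 roX2* mutant and 1885 ± 110 CPM in wildtype. At the Z-disc 4 of 11 were called, among them *Actn* (alpha-actinin, X-linked; log2 ratio -1.01 ± 0.22), *Mlp84B* (-0.75 ± 0.16) and *Zasp66* (-0.65 ± 0.12). Of 13 muscle attachment genes 4 were called, all X-linked: *Vinc* (vinculin, -1.24 ± 0.24), *parvin* (-0.96 ± 0.12), *if* (an integrin alpha chain, -0.86 ± 0.22) and *mys* (an integrin beta chain, -0.84 ± 0.14). *mew*, the remaining X-linked gene of that list, had a ratio of -0.34 ± 0.14 and was not called.

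Of the 7 tested genes of excitation and calcium handling 0 were called by edgeR, with 1 at an unadjusted p under 0.05 and 1 called by DESeq2 (median ratio -0.34). Of the 13 muscle regulators, such as the transcription factor gene *Mef2*, also 0 were called by edgeR, with 2 at an unadjusted p under 0.05 and 1 called by DESeq2. Their median ratio was -0.19, and the X-linked regulators *kirre* (0.06 ± 0.17) and *sing* (-0.61 ± 0.41) lay on either side of 0. *Mef2* had a ratio of -0.14 ± 0.15 and overlapping libraries. The difference between the lists was not tested. In a list of cytoplasmic actin and myosin genes 2 of 4 were called lower, both X-linked: *sqh* (-0.97 ± 0.23) and *Mlc-c* (-1.20 ± 0.30). The X-linked *Act5C* of this list had -1.06 ± 0.34 and did not pass (edgeR adjusted p = 0.0739). *Act42A*, the autosomal member of this list, went the other way without passing (0.41 ± 0.15, edgeR adjusted p = 0.104), with 108 ± 11.1 CPM in *roX1 roX2* mutant and 81.3 ± 9.18 CPM in wildtype (SD, n = 3 each). DESeq2 called 3 genes of this list lower and 1 higher.

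**Figure D4:**
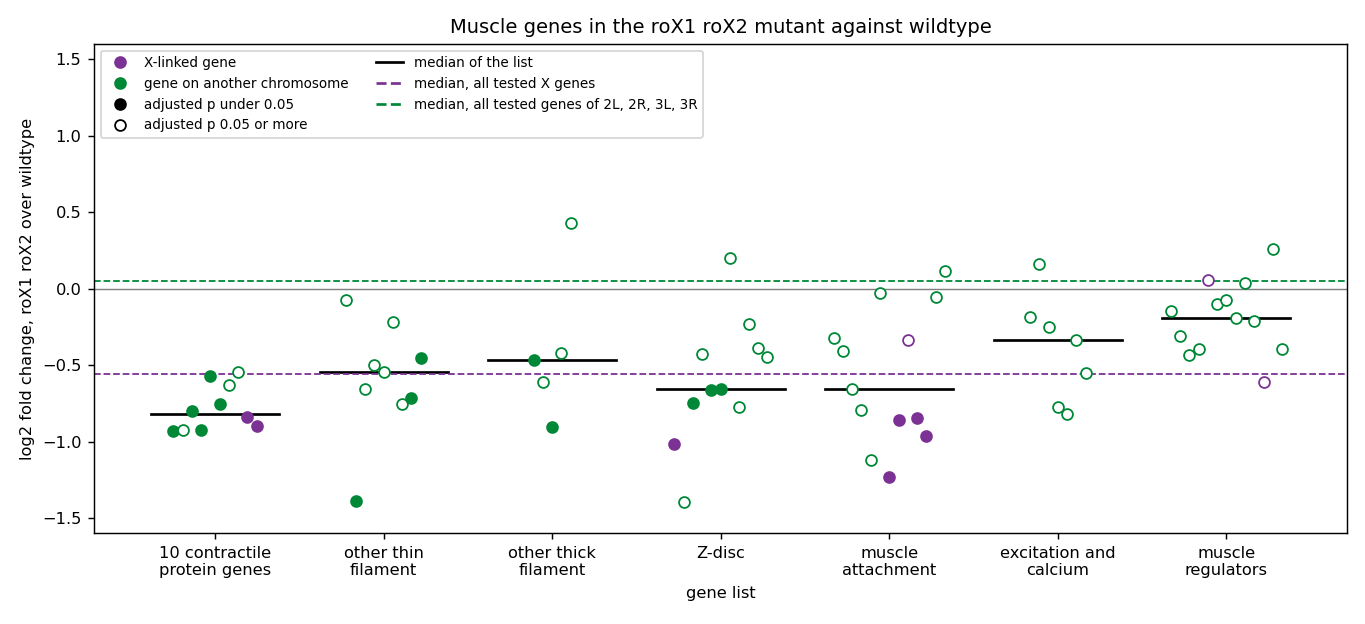
Log2 expression ratio (*roX1 roX2* mutant over wildtype) of each tested gene in 7 lists, in purple for X-linked genes and green for others; filled points have an adjusted p under 0.05, black bars are list medians and dashed lines the medians of all tested X genes (-0.56) and of genes on the major arms (0.05). The 10 contractile genes have a median of -0.82, and the muscle regulators one of -0.19.

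Markers of other tissues were also counted in *roX1 roX2* mutant against wildtype, where 5.67% of all genes were called lower and 3.41% higher. Whether the contractile genes differed from these lists was not tested. Of the neuron markers 0 of 7 were called by edgeR, with 3 at an unadjusted p under 0.05 and 1 called higher by DESeq2. They summed to 1775 to 2112 CPM in *roX1 roX2* mutant, against 1402 to 1773 CPM in wildtype. Each mutant sum lay above the wildtype sums, and 5 of 7 ratios were above 0 (median 0.36). Of the tested fat body markers 0 of 6 were called by edgeR, with 2 at an unadjusted p under 0.05 and 1 called lower by DESeq2. The sum of the 7 measured was 3662 to 6183 CPM in *roX1 roX2* mutant, against 6496 to 7602 CPM in wildtype. Here each mutant sum lay below the wildtype sums, and all 6 tested ratios were below 0 (median -0.56). Gut markers overlapped, at 1198 to 2660 CPM in *roX1 roX2* mutant and 1275 to 5108 CPM in wildtype, with 0 of 7 called by edgeR or DESeq2 or at an unadjusted p under 0.05. Of 6 blood cell markers 1 was called lower, *Pxn* (peroxidasin). The list summed to 141 to 151 CPM in *roX1 roX2* mutant and 155 to 241 CPM in wildtype, again without overlap. Cuticle and moult genes summed to 25.3 to 36.8 CPM in *roX1 roX2* mutant and 34.1 to 1483 CPM in wildtype, with 0 of 8 called by edgeR, 2 at an unadjusted p under 0.05 and 3 called lower by DESeq2. Of 9 tested markers of the third instar, 8 were below 0 without being called (median -0.67). The remaining one, the salivary glue gene *Sgs5*, was called higher, with 6.06 ± 0.982 CPM in *roX1 roX2* mutant and 0.0661 ± 0.114 CPM in wildtype (SD, n = 3 each), and carried the sum of that list (6.31 to 7.5 CPM in *roX1 roX2* mutant and 0.381 to 3.29 CPM in wildtype). *Pxn* and *Sgs5* were named after their values were seen. No marker of these lists was at 0 in all libraries of either genotype. Adult flight muscle markers summed to 1926 to 2718 CPM in *roX1 roX2* mutant and 2262 to 2740 CPM in wildtype. *Ald1* was the largest member of that list, and 0 of its 6 genes were called by edgeR. Within the list, the indirect flight muscle genes *Act88F*, *fln* and *TpnC4* were below 0.4 CPM on average in both genotypes. The larval muscle genes were abundant. The part of tissue composition or of developmental stage in the fall of the contractile genes was not tested. With only the 9 libraries on the larger side of the principal component, the 7 genes called in *roX1 roX2* mutant against wildtype were the same.

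Across the 13 libraries, the 10 genes whose log2 CPM was most like the mean of the 8 contractile genes not on the X chromosome, among 8661 genes of at least 5 CPM, were *Actn* (Pearson r = 0.976), *Neurochondrin* (0.958), *Nep1* (0.956), *dsh*, *Lrpprc2* and *CG14442* (0.949 each), *dlg1* (0.944), *if* (0.942), *Prm* (0.940) and *SERCA*, the calcium pump of the sarcoplasmic reticulum (0.940). 4 of these are in the muscle lists, and 7 are X-linked although the genes they were matched to are not. For *up* and *wupA* the 5 most similar genes were *slgA* (0.976), *CG6972* (0.969), *CG4239* (0.961), *GCS1* (0.954) and *CG11158* (0.949), none of them in the muscle lists. All these correlations are over the same 13 libraries, which share genotype and depth with the contractile genes themselves, and are given as a description.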

How the data were processed

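Polyadenylated RNA of whole first instar male larvae was sequenced in 13 libraries of 4 genotypes. The authors prepared libraries with the TruSeq RNA kit v2, which does not mark strand, aligned them with STAR 2.5.1b to the release 6 assembly, counted reads per gene with HTSeq 0.6.1 under its default settings and deposited raw counts, without normalization. These defaults assign reads by strand, and no other strand option is named. Between 10.3% and 23.8% of a library stood in lines that name no gene, which did not enter the analysis, and the remaining totals were 45620194 to 83954893. Genotypes and replicate numbers followed the labels.

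Counts were fitted in R 4.3.3 with edgeR 4.0.16 (TMM, quasi-likelihood test, two-sided, Benjamini-Hochberg adjustment over 13975 genes with at least 20 summed counts, threshold 0.05), with all 4 genotypes in one fit. TPM used the summed exon length of each gene. Log2 CPM had a prior count of 2. Symbols and positions came from Ensembl BDGP6.54, in which 247 identifiers were not found. The 10 genes and all lists were chosen with earlier results of these data known, so no test was made over a list. List genes were named if they passed the threshold against wildtype (up to 12 by smallest adjusted p) or were X-linked, and similar genes by correlation. *Mef2*, *Act42A*, *Mf*, *stck*, *Pxn*, *Sgs5* and the flight muscle genes fall outside this rule and were named after their values were seen. Scripts were tested on simulated data. Libraries of a genotype differed by more than sampling noise (chi-square per degree of freedom at least 43.7).

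Whether replicate numbers pair the libraries was checked with deviations from genotype means, over 9659 genes of the major arms. Same-numbered wildtype and *roX1* mutant libraries correlated at 0.526 to 0.646, and *roX2* and *roX1 roX2* mutant libraries at 0.136 to 0.208, so that numbers were taken to pair these genotypes. Other combinations held values below 0.1, down to -0.58. Alternatives were DESeq2 1.42.0, other scaling factors and filters, a replicate block, the 2 genotypes compared alone, the sides of the principal component, and each library left out in turn.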

Additional observations from a re-analysis of the deposited data

How the results depend on the processing

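The 7 genes called in *roX1 roX2* mutant against wildtype kept their direction under each of the 16 alternatives, with *wupA*, *Mlc1* and *Mlc2* called in all of them, *up* in 15, *Tm2* in 14, *Act57B* in 12 and *Tm1* in 11. Signs changed under an alternative for 28 values that were called in neither fit. Leaving out double mutant replicate 2 left 3 of these calls, replicate 3 left 4 and replicate 4 left 7, each with 2 libraries of that genotype remaining.

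Contractile genes called, against 7, 7 and 5, ranged over single left-out libraries from 3 to 7 in *roX1 roX2* against wildtype, from 2 to 7 in *roX1 roX2* against *roX1* and from 0 to 6 in *roX1 roX2* against *roX2*. The last count was 0 with only the 2 genotypes compared, 1 with only libraries on the larger side of the component and 1 without *roX2* replicates 2 and 3 (chosen after seeing the data). In *roX1* and *roX2* mutants against wildtype it was 0 under each alternative.

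Calls among all genes moved more. In *roX1* against wildtype, 185 genes were called, against 979 by DESeq2, 84 with the 2 genotypes alone, 541 on the larger side of the component, 329 with side as a term and 314 without *roX2* replicates 2 and 3; left-out libraries gave 61 to 238. In *roX2* against wildtype, 49 became 245 by DESeq2, 32 with the replicate block, 9 with the 2 genotypes alone, 141 on the larger side, 80 with side as a term and 16 without *roX2* replicates 2 and 3, with 23 to 59 over left-out libraries. In *roX1 roX2* against wildtype, 1269 became 2215 by DESeq2, 818 with the replicate block and 1932 without *roX2* replicates 2 and 3, with 393 to 905 over left-out libraries, and against *roX1* 2519 became 799 to 2090. Against *roX2*, 1072 became 1805 by DESeq2, 194 with the 2 genotypes alone and 431 without *roX2* replicates 2 and 3, with 175 to 1959 over left-out libraries. The causes were not tested.

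In the comparison of *roX1 roX2* with *roX1*, whose numbers do not pair, the replicate block added the call of *Mhc* (edgeR adjusted p = 0.0241). Beside this and the calls of *Tm1* and *Act57B* against *roX2*, the replicate block changed no call of a contractile gene. With the longest transcript as length, wildtype levels moved beyond their SD for *up*, *wupA*, *Tm1* and *Tm2*.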

Other observations

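The further muscle genes were also compared with the single mutants. Against *roX1* mutant, 10 of the 58 were called lower in *roX1 roX2* mutant and 1 higher, with a median log2 ratio of -0.20, where 11.6% of all genes were called lower and 6.45% higher. The gene called higher was *stck* (PINCH, an adaptor of integrin attachment sites), with 212 ± 12.9 CPM in *roX1 roX2* mutant (SD, n = 3) and 156 ± 4.93 CPM in *roX1* mutant (SD, n = 4; log2 ratio 0.44 ± 0.09, edgeR adjusted p = 0.0085). Against *roX2* mutant, 10 of the 58 were called lower and 0 higher, with a median of -0.38, where 5.44% of all genes were called lower and 2.23% higher, and *stck* had a ratio of 0.03 ± 0.10 there. *Act87E*, the muscle actin gene with the largest change among the called genes of the lists in the comparison with wildtype, was lower in *roX1 roX2* mutant than in both *roX1* mutant (-1.59 ± 0.24, edgeR adjusted p = 0.00257) and *roX2* mutant (-0.97 ± 0.25, edgeR adjusted p = 0.0364).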
